A study of Arabidopsis thaliana with 18 samples.

Results

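The plastid genome of Arabidopsis thaliana keeps a small set of genes for photosynthesis and for the expression of the plastid's own genes, and their transcripts were followed here in roots with and without a root-colonizing bacterium. The members were picked by symbol from the plastid genome and comprised the subunits of photosystem I (psa), photosystem II (psb), the cytochrome b6f complex (pet), the NDH complex (ndh), the ATP synthase (atp) and the plastid RNA polymerase (rpo), together with 8 other genes (accD, ccsA, cemA, clpP, matK, rbcL, ycf3 and ycf4). Of 54 listed genes, 53 had a probe set that the array annotation gave to that gene alone, which is 0.233% of the 22746 probe sets tested. They divide into 5 psa, 14 psb, 6 pet, 10 ndh, 6 atp, 4 rpo and the 8 other genes. The listed gene left out is ndhB, a membrane subunit of the NDH complex, whose probe set was listed for its 2 copies in the inverted repeat. Its mean WCS417 effect was 0.17 ± 0.10 on the log2 scale (adjusted p = 0.208 in limma).

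In green tissue these proteins form the core of the photosynthetic complexes, while the light-harvesting proteins and many further subunits come from nuclear genes. Root plastids are mostly not green. Plastid genes are read largely in polycistronic units by a bacterial-type polymerase, whose core subunits are the rpo genes, and by phage-type polymerases encoded in the nucleus. Their transcripts mostly lack a stable poly(A) tail, and the labelling protocol of these arrays starts from poly(A) tails, so the values rest on what that protocol primed.

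Transcripts of whole roots were measured on 18 ATH1 arrays, in 6 groups of 3 biological replicates each. The groups were WCS417-colonized and untreated roots of Col-0 (the wild type), of myb72-2 (a mutant of MYB72, a root transcription factor, in the Col-0 background) and of oxMYB72 (FLAG-tagged MYB72 behind the 35S promoter, a viral promoter active in most tissues, in the myb72-2 background, so that the mutant allele is present there too). All seedlings were 19 days old and had grown on agar with 50 µM Fe(III)EDTA. Colonized roots had received Pseudomonas fluorescens WCS417, a beneficial rhizobacterium, at 17 days, which is 2 days before sampling. How many seedlings made up a sample and how many transgenic lines were used could not be learned from the sources used here.

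The values are log2 expression values from RMA, in which a difference of 1 is a doubling. Replicate arrays correlated between 0.991 and 0.998 over probe sets, and the array medians lay between 6.29 and 6.41. No probe set bore the name MYB72 in the annotation used, so the genotype labels were not checked against the mutated gene. The root-hair expansins EXPA7 and EXPA18 were the measured entries of a list of 15 root markers, and their summed linear level ranged from 400.7 to 1076.2 over the arrays. As a sign of RNA quality, the difference between the 3′ and 5′ probe sets of actin ranged from 3.14 to 4.13, with the lowest value on WCS417 myb72-2 replicate 2. That of GAPDH ranged from -0.24 to 0.46 in WCS417 roots over the 3 genotypes and from 0.17 to 0.40 in untreated roots, and its part in the results was not tested. Errors after ± are standard errors of the limma model, and a member was called at a Benjamini-Hochberg adjusted p under 0.05 over all 22746 probe sets.

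WCS417 roots were compared with untreated roots, averaged over the 3 genotypes. Called lower were 9 of the 14 photosystem II genes (64.3%, against 19.5% of all probe sets) and petB, the b-type cytochrome of the b6f complex. From the other complexes and the rest of b6f, psaB, petA, ndhC, ndhJ, ndhD and atpB were called lower too. The largest falls were in petB (-0.62 ± 0.07, 1.54-fold lower, adjusted p = 9.33e-07) and in psbJ, psbL and psbF of photosystem II (-0.54, -0.54 and -0.53). The members moved in both directions. The 4 polymerase genes were not called in either direction, rbcL, which encodes the large subunit of Rubisco, differed by -0.04 ± 0.08, and petN, petG, ccsA and ndhG were higher.

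In limma, 20 of the 53 members were called in this mean effect (37.7%), against 37.6% of all probe sets, so the share called was near the background. By direction, 16 members were lower (30.2%, against 19.5% of all probe sets) and 4 were higher (7.55%, against 18.1%). The median difference was -0.12 over the members and 0.02 over all probe sets. Below 0 lay 41 of 53 members (77.4%), 75.0% of further plastid genes, 73.9% of mitochondrial probe sets and 46.4% of all probe sets. The 23 mitochondrial probe sets came from 16 genes, with nad1 and nad5 counted repeatedly, most often nad1. Fewer plastids or green cells in a root sample and less transcript per cell cannot be told apart in such bulk samples.

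**Figure D1:**
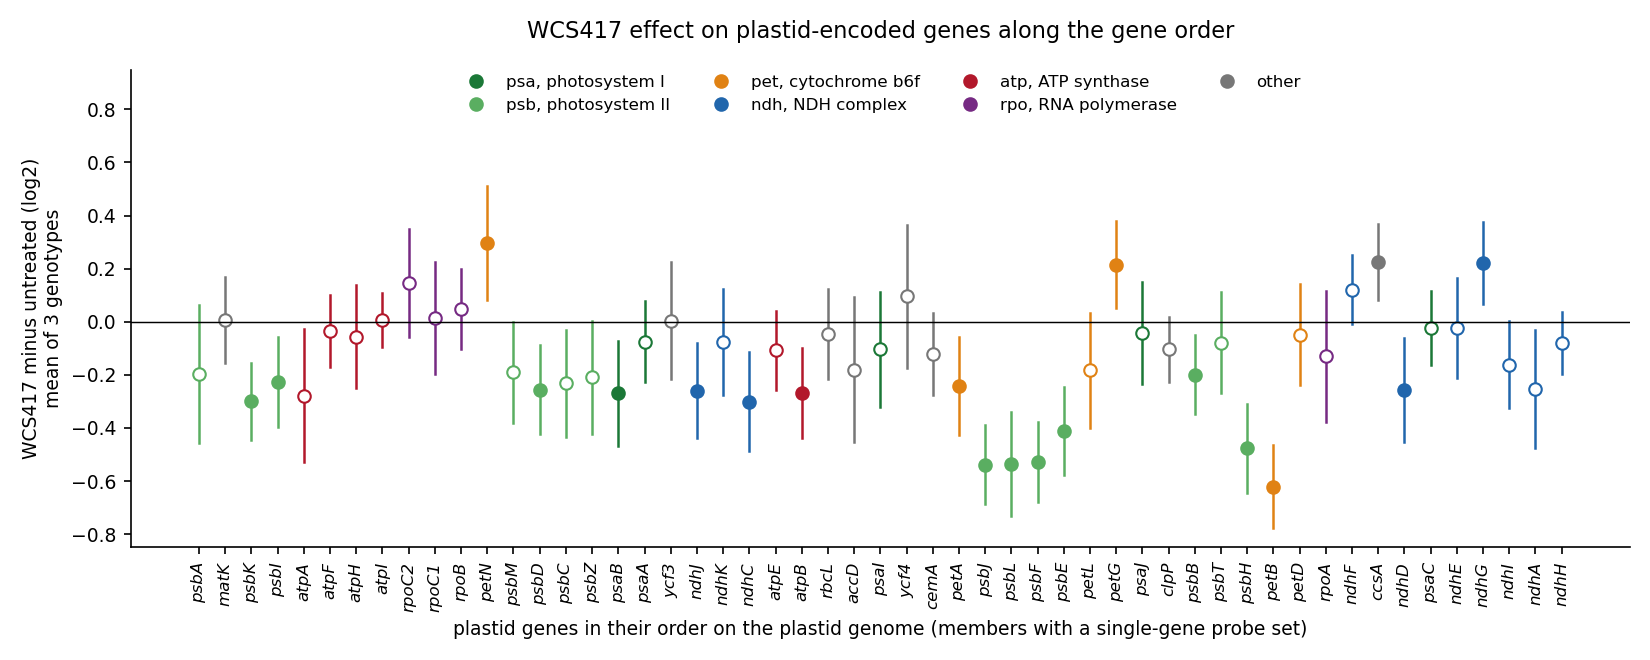
WCS417 minus untreated on the log2 scale (mean of 3 genotypes, y axis) for the 53 members in their order along the plastid genome (x axis), coloured by complex. Points are estimates, lines are 95% confidence intervals, and filled points passed an adjusted p under 0.05. The run psbJ, psbL, psbF, psbE and the pair psbH, petB lie lowest, between -0.62 and -0.41, and petN lies highest at 0.30.

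Photosystem II, the complex that splits water, held most of the lower members. In the mean effect 9 of its 14 plastid genes were called lower (64.3%, against 19.5% of all probe sets) and none higher (against 18.1%). The median was -0.24 and the range -0.54 to -0.08. The 4 largest falls were in psbJ (-0.54 ± 0.07, adjusted p = 3.27e-06), psbL (-0.54 ± 0.09, adjusted p = 9.96e-05), psbF (-0.53 ± 0.07, adjusted p = 5.93e-06) and psbH (-0.48 ± 0.08, adjusted p = 7.12e-05). The other members called lower were psbE, psbK, psbD, psbI and psbB, between -0.41 and -0.20, and the call of psbI ended under 8 of 23 alternatives. The 5 members not called were psbC, psbZ, psbA, psbM and psbT, between -0.23 and -0.08. Among these psbA, which encodes the D1 reaction-centre protein, had -0.20 ± 0.12 (95% confidence interval -0.46 to 0.06).

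The gene psbJ encodes a small subunit of photosystem II. Its log2 values were 8.09, 8.03 and 7.95 in WCS417 Col-0 roots, against 8.43, 8.45 and 8.79 in untreated Col-0 roots. In myb72-2 they were 7.78, 7.71 and 8.01 with WCS417, against 8.62, 8.53 and 8.49 without. In oxMYB72 they were 8.02, 8.06 and 8.15 with WCS417, against 8.18, 8.53 and 8.64 without. Every colonized array lay below every untreated array of its genotype, with the narrowest gap in oxMYB72. The differences were -0.53 ± 0.12 in Col-0 (adjusted p = 0.00413), -0.71 ± 0.12 in myb72-2 (adjusted p = 0.000226) and -0.37 ± 0.12 in oxMYB72 (adjusted p = 0.0375).

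The gene psbF encodes the beta subunit of the cytochrome bound to the photosystem II core. It read 9.49, 9.18 and 9.61 in WCS417 Col-0 roots, against 9.84, 10.01 and 10.20 in untreated Col-0 roots. In myb72-2 it read 9.39, 9.30 and 9.48 with WCS417, against 9.84, 9.95 and 10.21 without. In oxMYB72 it read 9.45, 9.55 and 9.74 with WCS417, against 9.94, 10.04 and 9.90 without. The colonized arrays were the lower ones in all 3 genotypes, without overlap. The differences were -0.59 ± 0.13 in Col-0 (adjusted p = 0.00212), -0.61 ± 0.13 in myb72-2 (adjusted p = 0.00129) and -0.38 ± 0.13 in oxMYB72 (adjusted p = 0.0377).

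The gene psbL encodes another small subunit of photosystem II. Its values were 6.50, 6.55 and 6.37 in WCS417 Col-0 roots, against 6.74, 6.79 and 7.20 in untreated Col-0 roots. In myb72-2 they were 6.07, 6.08 and 6.54 with WCS417, against 6.97, 6.68 and 7.06 without. In oxMYB72 they were 6.06, 6.55 and 6.62 with WCS417, against 6.70, 6.98 and 7.04 without. The groups did not overlap in any genotype, though the highest colonized array came close to the lowest untreated one in myb72-2 and oxMYB72. The gene was called in myb72-2 (-0.67 ± 0.16, adjusted p = 0.00479) and oxMYB72 (-0.50 ± 0.16, adjusted p = 0.0357), and its difference in Col-0 was -0.44 ± 0.16 (adjusted p = 0.0733).

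The gene psbH encodes a small phosphoprotein of photosystem II. It read 5.61, 5.70 and 5.62 in WCS417 Col-0 roots, against 6.24, 6.39 and 6.42 in untreated Col-0 roots. In myb72-2 it read 5.61, 5.77 and 5.79 with WCS417, against 5.48, 6.09 and 6.24 without. In oxMYB72 it read 5.52, 5.52 and 5.78 with WCS417, against 6.13, 6.15 and 6.05 without. The groups were apart in Col-0 and oxMYB72 and overlapped in myb72-2, where untreated replicate 1 was the lowest array of all 6. The gene was called in Col-0 (-0.71 ± 0.14, adjusted p = 0.00108) and oxMYB72 (-0.51 ± 0.14, adjusted p = 0.0138), and in myb72-2 the difference was -0.22 ± 0.14 (adjusted p = 0.301). Without untreated myb72-2 replicate 1, the difference in myb72-2 passed the threshold (adjusted p = 0.00796, where the 12 alternatives ranged up to 0.815).

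The cytochrome b6f complex passes electrons between the photosystems, and its members moved in both directions. Of 6 members, petB and petA were called lower in the mean effect (-0.62 and -0.24), and petN and petG were called higher (0.30 and 0.21). That is 33.3% lower and 33.3% higher, against 19.5% and 18.1% of all probe sets. The call of petA ended under 9 of its 23 alternatives, with adjusted p up to 0.0883. The gene petA encodes cytochrome f, and petN, petG and petL encode small subunits. Those not called were petL (-0.18 ± 0.10) and petD (-0.05 ± 0.09), which encodes a larger subunit of the complex.

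For petB, the log2 values were 9.76, 9.76 and 9.86 in WCS417 Col-0 roots, against 10.38, 10.46 and 10.42 in untreated Col-0 roots. In myb72-2 they were 9.80, 9.42 and 9.84 with WCS417, against 10.63, 10.38 and 10.50 without. In oxMYB72 they were 9.49, 9.90 and 10.08 with WCS417, against 10.24, 10.26 and 10.22 without. No colonized array reached the lowest untreated array of its genotype. The differences were -0.63 ± 0.13 in Col-0 (adjusted p = 0.00155), -0.82 ± 0.13 in myb72-2 (adjusted p = 8.61e-05) and -0.42 ± 0.13 in oxMYB72 (adjusted p = 0.0255).

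The rise of petN rested on less even values. It read 5.49, 5.94 and 5.50 in WCS417 Col-0 roots, against 5.48, 5.14 and 5.40 in untreated Col-0 roots. In myb72-2 it read 5.85, 5.80 and 5.35 with WCS417, against 5.67, 5.56 and 5.41 without, and in oxMYB72 6.27, 5.80 and 5.51 with WCS417, against 5.66, 5.21 and 5.30 without. The groups overlapped in myb72-2 and oxMYB72 and nearly touched in Col-0, and the gene was called in none of the 3 genotypes alone. The call in the mean effect (0.30 ± 0.10, adjusted p = 0.0263) ended when quantile normalization was run once more (adjusted p = 0.055). It also ended without WCS417 Col-0 replicate 2, untreated Col-0 replicate 2, WCS417 myb72-2 replicate 1, untreated myb72-2 replicate 3, WCS417 oxMYB72 replicate 1 or untreated oxMYB72 replicate 2, with adjusted p between 0.0555 and 0.0634. The call for petG (0.21 ± 0.08, adjusted p = 0.037), which lies among the 30% dimmest probe sets, ended under 12 of its 22 alternatives.

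**Figure D2:**
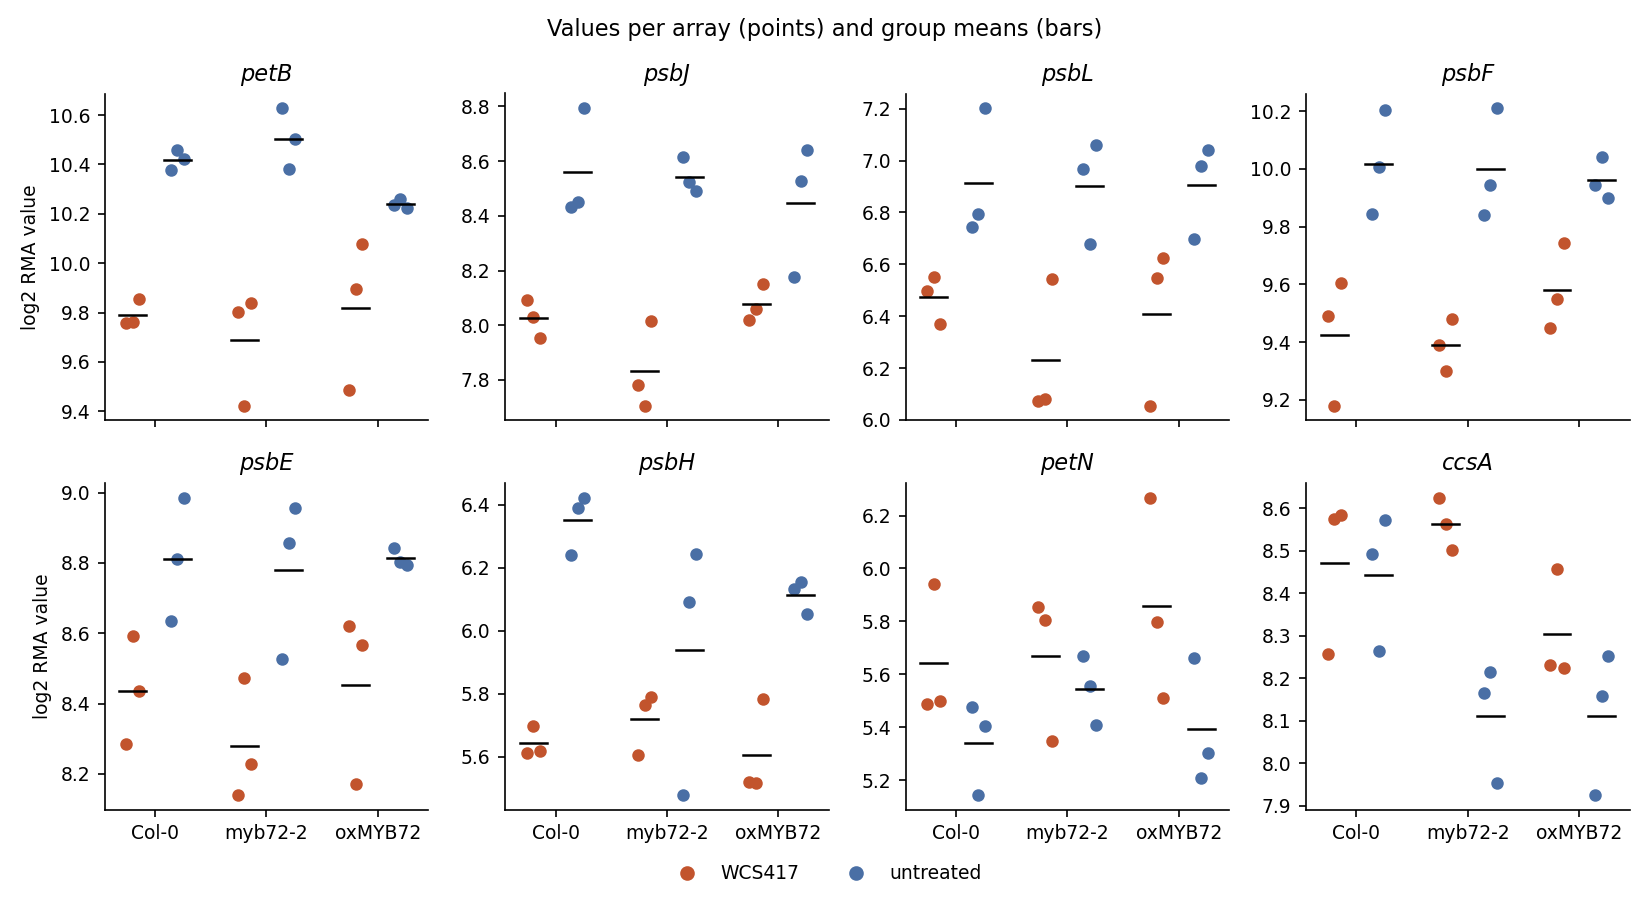
Log2 RMA values on each array (points, y axis) with group means (bars) for 8 members, for WCS417 (orange) and untreated (blue) roots of each genotype (x axis). In petB, psbJ, psbL, psbF and psbE every colonized array lies below every untreated array of its genotype, psbH overlaps in myb72-2, and petN and ccsA run higher with WCS417 in their means.

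Of the 5 members of photosystem I, 1 was called lower in the mean effect (20.0%, against 19.5% of all probe sets), and whether the complexes differed was not tested. It was psaB, which encodes a core reaction-centre protein (-0.27 ± 0.10, adjusted p = 0.0302), and psaA, its partner in the reaction centre, had -0.07 ± 0.07 (95% confidence interval -0.23 to 0.08). The median over the 5 was -0.07. In Col-0 psaB read 9.54, 9.59 and 9.98 with WCS417, against 10.28, 10.22 and 10.08 without, and the groups did not overlap. Its call in Col-0 (-0.49 ± 0.17, adjusted p = 0.0481) ended under 8 of 12 alternatives, and its call in the mean effect under 8 of 23.

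The NDH complex takes part in cyclic electron flow around photosystem I. In the mean effect ndhC (-0.30 ± 0.09, adjusted p = 0.0103), ndhJ (-0.26 ± 0.09, adjusted p = 0.02) and ndhD (-0.26 ± 0.09, adjusted p = 0.0362) fell and ndhG rose (0.22 ± 0.07, adjusted p = 0.0216). The call of ndhD ended under 9 of 23 alternatives (adjusted p up to 0.0884), that of ndhG under 4, and that of ndhJ without untreated myb72-2 replicate 3 (adjusted p = 0.0505, the highest of its 23). The 4 calls were 40.0% of the 10 ndh members, near the 37.6% of all probe sets. The other 6 members lay between -0.25 and 0.12, and the median of all 10 was -0.12. For ndhG, a membrane subunit, the values in myb72-2 were 5.74, 5.71 and 5.77 with WCS417, against 5.55, 5.19 and 5.29 without. The colonized arrays were the higher ones without overlap (0.40 ± 0.13, adjusted p = 0.0296), while the differences were 0.18 ± 0.13 in Col-0 and 0.08 ± 0.13 in oxMYB72. The call in myb72-2 ended without WCS417 replicate 1, 2 or 3 or untreated replicate 2 or 3, with adjusted p between 0.0526 and 0.135.

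Of the 6 plastid genes of the ATP synthase, atpB, which encodes the beta subunit of the catalytic head, was called lower in the mean effect (-0.27 ± 0.08, adjusted p = 0.0119). The alpha subunit gene atpA had a like difference with a wider error (-0.28 ± 0.12, adjusted p = 0.0761). The other 4 lay between -0.11 and 0.01. The 1 call was 16.7% of the 6 genes, against 19.5% of all probe sets called lower. In myb72-2 atpB read 10.93, 10.94 and 11.32 with WCS417, against 11.40, 11.61 and 11.45 without, which did not overlap.

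None of the 4 polymerase genes was called in the mean effect (37.6% of all probe sets were) or in any genotype. In these comparisons none reached an unadjusted p under 0.05 in limma. The smallest p in the mean effect was that of rpoC2 (0.15 ± 0.10, adjusted p = 0.257), and rpoB, rpoC1 and rpoA had 0.05 ± 0.07, 0.01 ± 0.10 and -0.13 ± 0.12. Leaving out untreated myb72-2 replicate 1 brought rpoC2 past the threshold (adjusted p = 0.0162, where the 23 alternatives ranged up to 0.461). Among the 8 other genes, ccsA, which is needed to attach heme to c-type cytochromes, was called higher (0.22 ± 0.07, adjusted p = 0.0136). It read 8.63, 8.56 and 8.50 in WCS417 myb72-2 roots, against 8.16, 8.21 and 7.95 in untreated myb72-2 roots, where its difference was 0.45 ± 0.12 (adjusted p = 0.00926, and 0.00319 to 0.0593 over its alternatives, the highest without untreated myb72-2 replicate 3). The groups did not overlap there, and in Col-0 the difference was 0.03 ± 0.12. The genes accD, cemA, clpP, rbcL, ycf3, matK and ycf4 lay between -0.18 and 0.10. Called higher were thus 12.5% of these 8 other genes, against 18.1% of all probe sets.

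**Figure D3:**
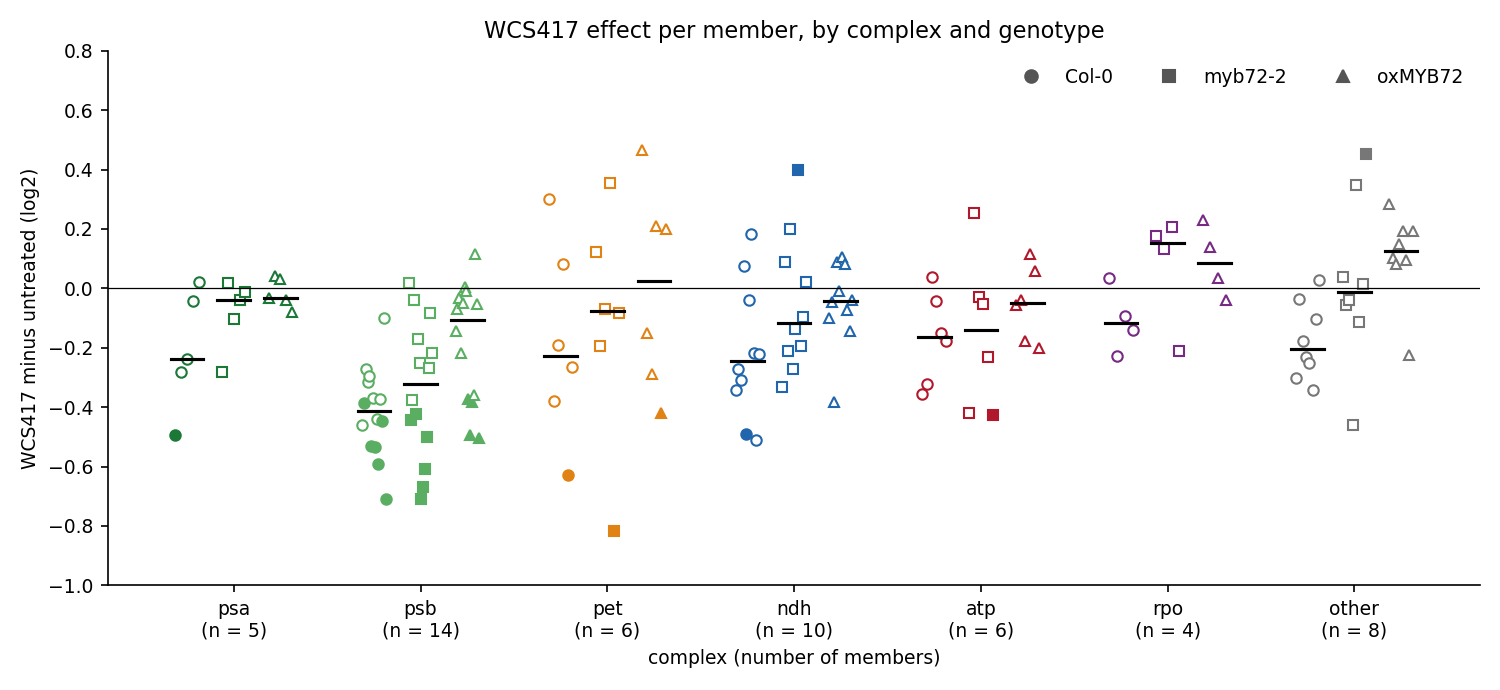
WCS417 minus untreated on the log2 scale (y axis) for each member, by complex (x axis) and genotype (circles Col-0, squares myb72-2, triangles oxMYB72). Filled points were called and bars are medians over the complex. The psb medians were -0.41 in Col-0, -0.32 in myb72-2 and -0.11 in oxMYB72.

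By genotype, the counts were as follows. In Col-0, 9 members were called lower and none higher (17.0%, against 15.3% of all probe sets, of which 8.96% were lower and 6.38% higher), with a median of -0.26 against 0.001 over all probe sets. They were psbH, petB, psbF, psbJ, psbC (-0.53 ± 0.17), psaB, ndhD (-0.49 ± 0.16), psbB and psbK. The count was 4 without untreated Col-0 replicate 1, without untreated Col-0 replicate 3 and without WCS417 Col-0 replicate 1, and psbJ, psbF, psbH and petB were called under every alternative. The calls of psbC, psaB, ndhD, psbB and psbK also ended without WCS417 Col-0 replicate 2. In 22 members every colonized array lay below every untreated array (41.5%, against 17.7% of all probe sets), and in 1 member every colonized array lay above (14.3% of all probe sets).

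In myb72-2, 8 members were called lower and 2 higher (18.9%, against 21.4% of all probe sets, of which 12.9% were lower and 8.52% higher), with a median of -0.10 against -0.002 over all probe sets. The lower ones were petB, psbJ, psbL, psbF, psbE (-0.50 ± 0.14), psbK, psbD and atpB (-0.42 ± 0.14), and the higher ones were ccsA and ndhG. Without untreated myb72-2 replicate 3 the count was 5, and petB, psbJ, psbL and psbF were called under every alternative. The groups did not overlap for 8 lower members (19.0% of all probe sets were lower in this way) and for 2 higher members (14.2% of all probe sets).

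In oxMYB72, 5 members were called lower and none higher (9.43%, against 19.3% of all probe sets, of which 9.09% were lower and 10.2% higher), with a median of -0.04 against 0.03 over all probe sets. They were psbH, psbL, petB, psbF and psbJ. None of these calls held under every alternative. No member was called without untreated oxMYB72 replicate 2. There was 1 call without untreated oxMYB72 replicate 3, and there were 2 without WCS417 oxMYB72 replicate 2. Without WCS417 oxMYB72 replicate 1 all 5 of these calls ended, and the 1 member called there was not among them. The groups did not overlap for 9 lower members (16.1% of all probe sets) and 4 higher members (19.0% of all probe sets). The median over the members was 0.02 without untreated oxMYB72 replicate 3.

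Set side by side, 24 members lay below 0 in all 3 genotypes, 6 above 0 in all 3 and 23 were mixed, where 28.1% of all probe sets were below 0 and 31.0% above 0 in all 3. The genes petB, psbJ and psbF were called lower in each genotype, which is 3 of 53 members against 4.99% of all probe sets. Lower without overlap in each genotype were those 3 with psbL and psbE, 5 of 53 members against 8.05% of all probe sets.

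Neighbouring genes that are read as a unit were compared next. The units were taken from textbook knowledge after the values had been seen, and they are described without a test. For scale, 19.5% of all probe sets were called lower and 18.1% higher in the mean effect. The unit psbE, psbF, psbL and psbJ was called lower in all 4 of its genes in the mean effect, between -0.54 and -0.41. It held 2 lower calls in Col-0, 4 in myb72-2 and 3 in oxMYB72. Of all probe sets 8.96%, 12.9% and 9.09% were called lower there. The gene psbE, which encodes the alpha subunit of the photosystem II cytochrome, read 8.28, 8.59 and 8.44 in WCS417 Col-0 roots, against 8.64, 8.81 and 8.99 in untreated Col-0 roots, and these groups did not overlap (-0.37 ± 0.14, adjusted p = 0.0712). Over the 18 arrays the 6 pairs of genes in this unit correlated between 0.66 and 0.92 (median 0.81), against a median of 0.20 over the 1378 pairs of members. Median correlations in the other 11 units lay between -0.05 (atpI to atpA) and 0.77 (psbD, psbC and psbZ). The arrays share the group differences above, which add to such a correlation.

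The unit of psbB, psbT, psbH, petB and petD was less even. In the mean effect psbB (-0.20 ± 0.07, adjusted p = 0.0318), psbH and petB were called lower, and psbT (-0.08 ± 0.09) and petD (-0.05 ± 0.09) were not. Both genes not called are among the 30% dimmest probe sets. The gene psbB encodes an inner antenna protein of photosystem II, and its call in the mean effect ended under 9 of 23 alternatives. The median correlation within the unit was 0.18 over 10 pairs. In the unit of ndhC, ndhK and ndhJ, 2 of 3 genes were called lower, and in that of psbK and psbI both were (-0.30 ± 0.07 and -0.23 ± 0.08). Of the long unit that runs ndhD, psaC, ndhE, ndhG, ndhI, ndhA and ndhH, 1 gene was called lower (ndhD) and 1 higher (ndhG). The unit of psbD, psbC and psbZ had 1 of 3 genes called lower (psbD), that of psaA and psaB 1 of 2 (psaB), that of atpB and atpE 1 of 2 (atpB), and that of psaI, ycf4, cemA and petA 1 of 4 (petA). The pair petL and petG lay on opposite sides of 0 (-0.18 and 0.21, with petG called), with a correlation of 0.12. No gene of the units atpI to atpA or rpoB to rpoC2 was called in the mean effect. Among all probe sets 37.6% were called there, 19.5% of them all as lower. Of the members, psbD and psbC overlap in sequence, as do atpE and atpB, so their probe sets may share signal.

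Few members differed past the threshold between genotypes. In untreated roots, oxMYB72 had 2 members called lower than Col-0 and none higher (3.77%, against 7.41% of all probe sets in either direction and 3.58% lower). These were psbC, which encodes an inner antenna protein of photosystem II, and matK, which encodes a maturase that helps splice plastid introns. For psbC the values were 7.59, 7.56 and 7.56 in untreated oxMYB72 roots, against 8.29, 7.78 and 8.39 in untreated Col-0 roots. For matK they were 7.50, 7.66 and 7.79 in untreated oxMYB72 roots, against 8.09, 8.04 and 8.22 in untreated Col-0 roots. In both genes every oxMYB72 array was the lower, by -0.59 ± 0.17 for psbC (adjusted p = 0.0334) and -0.47 ± 0.13 for matK (adjusted p = 0.0363). In the same comparison 5 of 9 nuclear photosynthesis genes, which mark green tissue, were called lower (55.6%, against 3.58% of all probe sets). None of them was called higher, their median was -0.45 and 8 of 9 lay below 0. The 2 measured root-hair genes also lay lower, between -0.41 and -0.39, and were not called. The chlorophyll gene PORB (-0.73 ± 0.18) and the NDH gene NDHS (-0.79 ± 0.14) were called lower. CHLM, the other chlorophyll gene measured, had -0.33 and was not called. The other 2 nuclear NDH genes measured lay above 0 (0.07 and 0.11) and were not called. The part of all these nuclear genes in the plastid result was not tested. No call of a plastid member was left when quantile normalization was run once more or arrays were centred on their medians, or without untreated Col-0 replicate 1 or 3 or untreated oxMYB72 replicate 1 or 2. There was 1 call without untreated oxMYB72 replicate 3, and there were 5 from the 6 arrays compared alone.

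Against the same untreated Col-0 arrays, myb72-2 had 0 members called in limma, where 0.0396% of all probe sets were called. At an unadjusted p under 0.05 it had 5 members (9.43%, against 3.72% of all probe sets). Untreated oxMYB72 against untreated myb72-2 had 0 called in limma (6.81% of all probe sets) and 6 unadjusted (11.3%, against 17.1%). Among colonized roots 0 members were called in limma in the 3 comparisons, where 0.127% of all probe sets were called for myb72-2 against Col-0, 5.52% for oxMYB72 against myb72-2 and 4.26% for oxMYB72 against Col-0. At an unadjusted p under 0.05 there were 4 members for myb72-2 against Col-0 (7.55%, against 7.08% of all probe sets), 4 for oxMYB72 against myb72-2 (7.55%, against 16.7%) and 2 for oxMYB72 against Col-0 (3.77%, against 14.0%). The nearest to the threshold was ndhG, chosen here after its values were seen. It read 5.42, 5.12 and 5.42 in WCS417 oxMYB72 roots, against 5.74, 5.71 and 5.77 in WCS417 myb72-2 roots. The 3 oxMYB72 arrays were the lower ones (-0.42 ± 0.13, adjusted p = 0.0582), and the gene was called once the 30% dimmest probe sets were left out (adjusted p = 0.046). Its 12 alternatives ranged from 0.0156 to 0.258. Without WCS417 myb72-2 replicate 3, accD, which encodes a subunit of the plastid acetyl-CoA carboxylase, was called higher in oxMYB72 in the same comparison (0.70, adjusted p = 0.0423, where its 12 alternatives ranged up to 0.865).

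Whether the WCS417 effect itself differed between genotypes was tested as a difference of effects, and no member was called in limma. Of all probe sets 0.0176% were called for myb72-2 minus Col-0, 1.75% for oxMYB72 minus Col-0 and 2.78% for oxMYB72 minus myb72-2. At an unadjusted p under 0.05 there were 3 members for myb72-2 minus Col-0 (5.66%, against 3.73% of all probe sets), 5 for oxMYB72 minus Col-0 (9.43%, against 8.9%) and 3 for oxMYB72 minus myb72-2 (5.66%, against 12.7%). The medians over the members were 0.12, 0.21 and 0.13, against -0.01, 0.04 and 0.05 over all probe sets. In oxMYB72 minus Col-0, 8 of 53 members lay below 0 (15.1%, against 40.3% of all probe sets). Of 16 further plastid genes, for ribosomal proteins and psbN, 18.8% lay below 0, with a median of 0.17. The same untreated arrays enter the comparison of untreated oxMYB72 with untreated Col-0, in which 43 of 53 members lay below 0 (81.1%, against 58.5% of all probe sets) with a median of -0.13 (-0.03 over all probe sets). There the 16 further plastid genes had a median of -0.23, with 75.0% below 0. The 9 nuclear photosynthesis genes had a median of -0.45 there, and their part in the shift was not tested. As a difference of effects, PSAE1, a nuclear subunit of photosystem I (0.71 ± 0.18, adjusted p = 0.0491), and NDHS (0.82 ± 0.19, adjusted p = 0.0286) were called for oxMYB72 minus Col-0, and PSBY (0.63 ± 0.16, adjusted p = 0.0396) and PSAE1 (0.67 ± 0.18, adjusted p = 0.0477) for oxMYB72 minus myb72-2. The other 2 measured nuclear NDH genes lay below 0 for oxMYB72 minus Col-0 (-0.13 and -0.27) and were not called. In colonized oxMYB72 against colonized Col-0 roots, 23 members lay below 0 (43.4%, against 47.4%) with a median of 0.02. The smallest p-values among differences of effects were those of atpF in myb72-2 minus Col-0 (0.58 ± 0.16, adjusted p = 1) and psbB in oxMYB72 minus Col-0 (0.56 ± 0.17, adjusted p = 0.153).

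**Figure D4:**
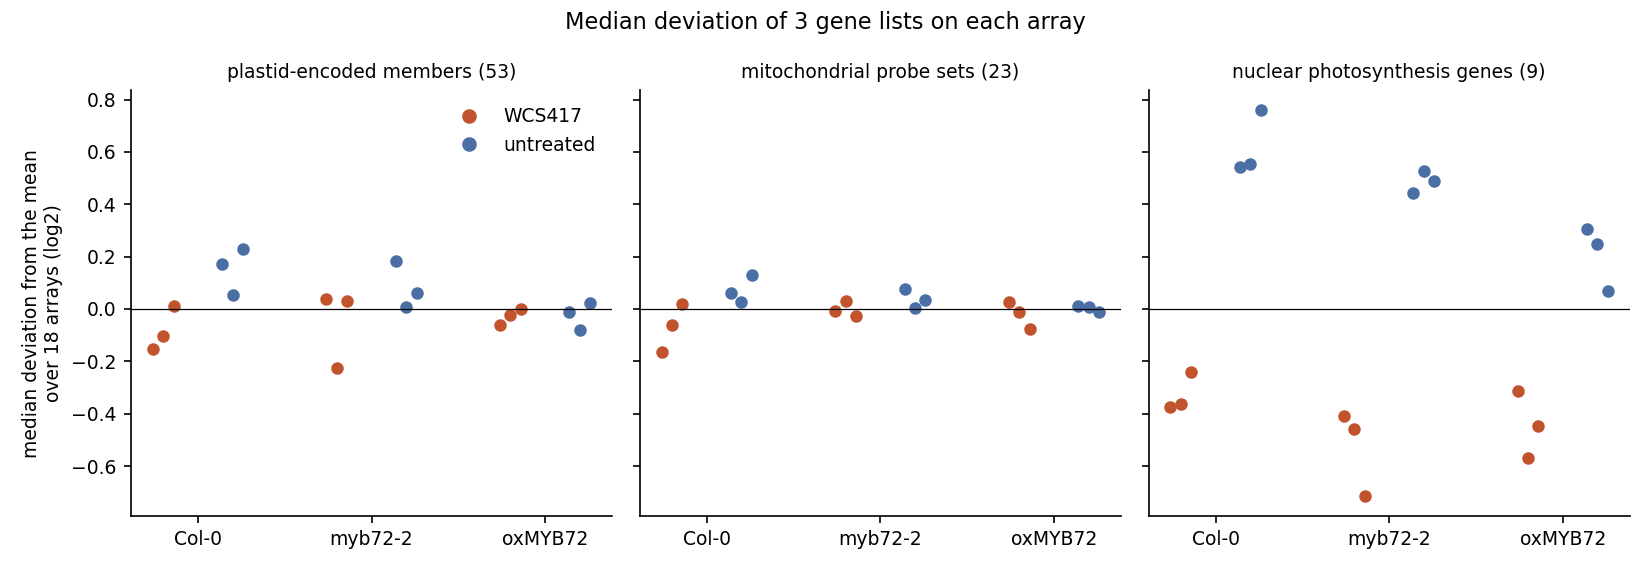
Median deviation of a gene list from its mean over 18 arrays (log2, y axis), 1 point per array, for the 53 plastid-encoded members, 23 mitochondrial probe sets and 9 nuclear photosynthesis genes, by genotype (x axis) and treatment (orange WCS417, blue untreated). The members range from -0.22 to 0.23 and the nuclear genes from -0.72 to 0.76, with colonized and untreated arrays apart in the nuclear genes of every genotype.

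The members were set beside other organelle genes and beside nuclear genes of the same complexes. Of 16 further plastid genes, which encode ribosomal proteins and psbN, a photosystem II assembly gene, rps2 was called higher (0.20 ± 0.07) and rpl32 lower (-0.61 ± 0.18) in the mean effect, with a median of -0.09. Of 23 mitochondrial probe sets from 16 genes, 2 were called higher and 5 lower, with a median of -0.07. Among these probe sets nad1 and nad5 were counted repeatedly, most often nad1. Called were 12.5% of the further plastid genes and 30.4% of the mitochondrial probe sets, against 37.6% of all probe sets. Below 0 lay 75.0% and 73.9% of them, near the 77.4% of the members, against 46.4% of all probe sets. The medians and shares of these lists and of the members were not tested against each other.

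Nuclear photosynthesis genes moved further. Of a list of 57 such genes only 9 had a probe set of their own in the annotation. All 9 were called lower in the mean effect, against 19.5% of all probe sets, with a median of -0.83. The largest falls were in LHCB4.2 (-1.20 ± 0.08) and LHCB4.1 (-1.01 ± 0.07), light-harvesting proteins of photosystem II, ATPC1 (-0.93 ± 0.07), the gamma subunit of the plastid ATP synthase, and PSBY (-0.92 ± 0.07), a small photosystem II protein. Their summed linear level ranged from 888.5 to 896.2 in WCS417 Col-0 roots, against 1596.4 to 1878.1 in untreated Col-0 roots. In myb72-2 the ranges were 664.6 to 836.2 with WCS417, against 1555.0 to 1618.8 without, and in oxMYB72 752.0 to 898.9 with WCS417, against 1164.3 to 1465.8 without. These genes also mark green tissue, and their part in the plastid results was not tested. The median deviation of the plastid members overlapped between colonized and untreated arrays in myb72-2 and oxMYB72 and not in Col-0, where it was -0.15 to 0.01 with WCS417 and 0.05 to 0.23 without.

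Other nuclear lists were barely covered. Of 12 genes for chlorophyll synthesis and its regulation 2 were measured, and PORB (-0.56 ± 0.10) and CHLM (-0.62 ± 0.06), enzymes of chlorophyll synthesis, were both called lower. Of 14 nuclear genes of the NDH complex 3 were measured, and NDHS was called lower (-0.89 ± 0.08). The other 2 had -0.09 and 0.13 and were not called. Of 21 nuclear genes for plastid transcription 1 was measured, RPOTMP, a phage-type polymerase, with 0.01 ± 0.07. Of 13 nuclear partners of the Clp protease and the acetyl-CoA carboxylase 2 were measured and 0 were called in limma. The root-hair genes EXPA7 (0.48 ± 0.09) and EXPA18 (0.74 ± 0.07) were both called higher in WCS417 roots, with a summed linear level of 730.9 to 1076.2 over the 9 colonized arrays, against 400.7 to 772.2 over the 9 untreated ones.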

How the data were processed

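The deposited values are log2 values, computed by the authors with RMA per the submitters' processing notes (RMA version not given in the sources used here). The log2 scale was taken from RMA and from the range of 2.42 to 14.63. Of 22810 probe sets, 64 controls were left out. Genes were named from the platform annotation, with symbols and gene order from a RefSeq table of TAIR10.1: 13513 probe sets had 1 gene, 503 several and 8730 none named.

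A linear model in limma 3.58.1 under R 4.3.3, fitting 1 mean for each group of the 18 arrays with eBayes, gave 13 comparisons, two-sided, adjusted over 22746 probe sets and tested on simulated data first. The number of arrays limits precision. In the simulated WCS417 comparison in Col-0, 2.99% of changes of 0.3, 52.2% of changes of 0.5 and 100% of changes of 1 were called. Few probe sets were changed in that simulation, so the share found in the data may differ. Replicate numbers were not taken as pairs: same-numbered arrays deviated with correlations of -0.30 to 0.26 (45 pairs, median 0.007). Differently numbered arrays had -0.41 to 0.39 (90 pairs, median 0.003). No 2 arrays were identical. Members named with values were the called ones, at most 4 per complex and comparison, or the smallest p where none was called; rbcL, psbA, psaA and others with values outside this rule were chosen after their values were seen. Members, lists and tests were chosen with earlier results of these data known. Alternatives were a further quantile normalization, centring arrays on their medians, robust moderation with a variance trend, a fit to the compared arrays alone, a fit without the 30% dimmest probe sets, the replicate number as a block, and leaving out each array. Sequences are not shown. Figures used matplotlib 3.10.9 in Python 3.11.15.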

Additional observations from a re-analysis of the deposited data

How the results depend on the processing

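No result changed direction in a called value. Of 46 member calls, 19 held under every alternative, 34 under quantile normalization once more, 42 under median centring and 45 with a variance trend. With each array left out in turn, the members called ranged from 4 to 8 in Col-0, 5 to 11 in myb72-2, 0 to 6 in oxMYB72 and 15 to 23 in the mean of the 3 genotypes. For untreated oxMYB72 against Col-0 they ranged from 0 to 2, with 0 under quantile normalization once more and under median centring and 5 from only the arrays compared. For colonized oxMYB72 against myb72-2 they ranged from 0 to 1, with 1 (ndhG) without the 30% dimmest probe sets. With the replicate number as a block, that comparison also had 1 (ndhG, adjusted p = 0.0156), 45 of the 46 calls held and the mean effect had 23 calls. In the mean effect psbJ, psbL, psbF, psbE, psbH, psbK, psbD, petB, ndhC, atpB and ccsA were called in all alternatives. Quantile normalization once more left 13 lower and 1 higher there, against 16 and 4 as reported. The causes were not tested. The 11 members among the 30% dimmest probe sets, near the lower end of the values, gave 1 call, and 9 nuclear photosynthesis genes stand for a list of 57.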
